A study of Homo sapiens with 34 samples.

Results

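SNU475 is an established line of hepatocellular carcinoma, the main cancer of liver cells. The comparison described here sets 2 arrays of SNU475 cells on day 24 against 2 arrays of untreated SNU475 cells, 4 of the 34 arrays of the series, chosen by their titles. The series measured total RNA of the lines HepG2, SNU398 and SNU475 on Illumina arrays in 17 groups of 2. Treated cells had received 3 daily doses of 100 nM SGI-110, a total exposure of 72 h, and were harvested on later days, so that day 24 lies well after the drug was taken away. Untreated cells were harvested at day 0 and received no drug. No other day of untreated SNU475 was used here, so time in culture and treatment cannot be told apart. Nothing in the labels tells if replicate arrays are from separate cultures, so every p-value below measures the spread between these arrays, which may be technical.

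SGI-110 (guadecitabine) is a prodrug of decitabine, a cytidine analogue that is built into DNA during replication and traps the DNA methyltransferases there. Cells that go on dividing then lose methylation from their CG dinucleotides, and regain it over later divisions. Genes that are usually silenced by promoter methylation in somatic cells, above all cancer-testis genes and some imprinted genes, are known to be switched on by such drugs, and interferon and antigen presentation genes are known to follow in many carcinoma lines. The comparison asks which of the changes in expression are present in SNU475 at day 24.

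The deposited intensities of untreated and of day 24 SNU475 lie on different percentile scales. The 12 arrays of 1 set, which hold untreated and day 3 SNU475, have medians from 172.65 to 172.73, and the 10 arrays of another, which hold SNU475 from day 10 to day 56, have medians from 156.27 to 156.33. All 34 arrays were therefore normalized together, but the array set and the group cannot be told apart in the comparison of day 24 with untreated cells. Days 17 and 31 lie in the same set as day 24, and results that set day 24 against them do not cross sets. Those results use the same day 24 arrays as the comparison with untreated cells, so the comparisons are not independent. Levels are log2 intensities after normalization, and a level counted as above background where both arrays of a group exceeded 6.974. Replicate arrays correlated across genes at r = 0.9951 for untreated and 0.9942 for day 24, where genes are not independent replicates.

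The promoter windows below belong to the genes with the largest changes and are shown because the drug acts on CG dinucleotides, which are in capitals. Each runs from 250 bases before to 50 bases after the gene's start, 5′ to 3′ on the gene's strand, as RefSeq gives it on GRCh38.p14, with 1 start for each gene. IFI27 (chr14:94110486-94110785, plus strand) and H19 (chr11:2001217-2001516, minus strand) had the largest increases among genes above background in both groups.
IFI27: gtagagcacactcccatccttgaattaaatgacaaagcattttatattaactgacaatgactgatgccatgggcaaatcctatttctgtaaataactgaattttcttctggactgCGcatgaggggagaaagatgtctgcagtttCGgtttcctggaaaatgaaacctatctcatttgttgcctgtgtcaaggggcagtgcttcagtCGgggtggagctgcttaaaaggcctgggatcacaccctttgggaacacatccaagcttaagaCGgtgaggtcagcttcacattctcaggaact
H19: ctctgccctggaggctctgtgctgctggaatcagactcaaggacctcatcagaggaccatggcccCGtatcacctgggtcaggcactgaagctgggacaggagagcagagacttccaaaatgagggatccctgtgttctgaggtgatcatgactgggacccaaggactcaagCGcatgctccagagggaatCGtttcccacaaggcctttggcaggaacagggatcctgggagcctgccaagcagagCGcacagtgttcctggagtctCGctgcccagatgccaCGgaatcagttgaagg
PAGE2B (chrX:55074780-55075079, plus strand) and PAGE2 (chrX:55088768-55089067, plus strand) had the largest increases among genes that were not above background in untreated cells, and they are neighbouring copies of 1 gene family.
PAGE2B: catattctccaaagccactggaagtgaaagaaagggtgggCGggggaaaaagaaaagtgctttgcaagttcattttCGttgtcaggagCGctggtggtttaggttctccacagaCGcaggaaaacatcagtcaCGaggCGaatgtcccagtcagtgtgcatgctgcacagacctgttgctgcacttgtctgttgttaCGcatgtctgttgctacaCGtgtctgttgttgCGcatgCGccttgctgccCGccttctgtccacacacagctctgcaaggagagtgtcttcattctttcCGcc
PAGE2: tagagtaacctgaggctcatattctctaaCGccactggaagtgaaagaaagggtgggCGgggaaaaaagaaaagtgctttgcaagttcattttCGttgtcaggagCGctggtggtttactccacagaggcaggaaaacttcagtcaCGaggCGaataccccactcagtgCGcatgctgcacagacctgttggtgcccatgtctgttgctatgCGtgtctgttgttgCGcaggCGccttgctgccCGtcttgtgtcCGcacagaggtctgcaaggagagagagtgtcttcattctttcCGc
FOSB (chr19:45467746-45468045, plus strand) and ABL2 (chr1:179143027-179143326, minus strand) had the largest decreases among genes above background in both groups.
FOSB: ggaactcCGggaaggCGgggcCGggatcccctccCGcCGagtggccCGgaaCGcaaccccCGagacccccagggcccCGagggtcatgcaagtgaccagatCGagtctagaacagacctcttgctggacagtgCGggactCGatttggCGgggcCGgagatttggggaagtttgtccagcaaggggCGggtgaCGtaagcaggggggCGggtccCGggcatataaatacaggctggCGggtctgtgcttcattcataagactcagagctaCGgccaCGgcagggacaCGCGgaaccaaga
ABL2: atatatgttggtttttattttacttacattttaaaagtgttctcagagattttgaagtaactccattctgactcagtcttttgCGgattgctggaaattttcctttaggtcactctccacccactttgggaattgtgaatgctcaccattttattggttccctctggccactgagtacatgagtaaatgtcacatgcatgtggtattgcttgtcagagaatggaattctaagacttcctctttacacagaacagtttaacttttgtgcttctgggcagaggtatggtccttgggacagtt
EDN2 (chr1:41484634-41484933, minus strand) and NR4A3 (chr9:99821635-99821934, plus strand) had the largest decreases among genes that were no longer above background at day 24.
EDN2: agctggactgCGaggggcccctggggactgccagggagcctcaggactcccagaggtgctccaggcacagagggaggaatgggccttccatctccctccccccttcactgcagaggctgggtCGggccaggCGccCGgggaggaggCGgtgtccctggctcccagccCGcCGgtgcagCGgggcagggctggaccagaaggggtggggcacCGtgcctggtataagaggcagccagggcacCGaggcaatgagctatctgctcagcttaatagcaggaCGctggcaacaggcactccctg
NR4A3: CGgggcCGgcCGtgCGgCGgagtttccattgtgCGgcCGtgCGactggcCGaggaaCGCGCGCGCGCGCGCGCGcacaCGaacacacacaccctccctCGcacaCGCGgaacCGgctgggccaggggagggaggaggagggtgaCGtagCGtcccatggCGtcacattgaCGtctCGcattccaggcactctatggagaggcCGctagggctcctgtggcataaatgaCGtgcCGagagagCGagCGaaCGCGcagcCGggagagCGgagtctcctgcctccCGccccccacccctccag
The windows of IFI27 and H19 hold 4 and 6 CG, those of PAGE2B and PAGE2 12 and 13, those of EDN2 and FOSB 11 and 23, that of ABL2 1 and that of NR4A3 38. Windows at other starts of these genes, such as ABL2 and H19 may have, were not counted.

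At day 24 the interferon gene IFI27, the imprinted RNA H19, the apolipoprotein gene APOE and cancer-testis genes of the PAGE family were among the largest increases, and transcription factors of the immediate early response were among the largest decreases. Of 15297 genes tested in limma, 2828 were higher and 2426 lower at an adjusted p under 0.05, which is 18.5% and 15.9% of the genes tested. At least 2-fold changes were fewer, 454 higher (2.97%) and 294 lower (1.92%). Over all genes the log2 fold change had a median of 0.02 and an SD of 0.49. Arrays of the groups did not overlap in 2828 of the genes called higher and in 2424 of those called lower, and overlapped in 2 called genes. A call nearly fixes that outcome, here and for the genes named below, so it adds no support to a call. The share of all genes tested without overlap was not counted. Of all called genes 53.8% were higher at day 24 after quantile normalization. When arrays were scaled to 1 common median instead, 2165 genes were higher and 3409 lower, a share of 38.8% higher, and the median of all genes stood at -0.06. The RNA came from whole cultures, so fewer cells of a kind and less RNA per cell cannot be told apart in any decrease.

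**Figure D1:**
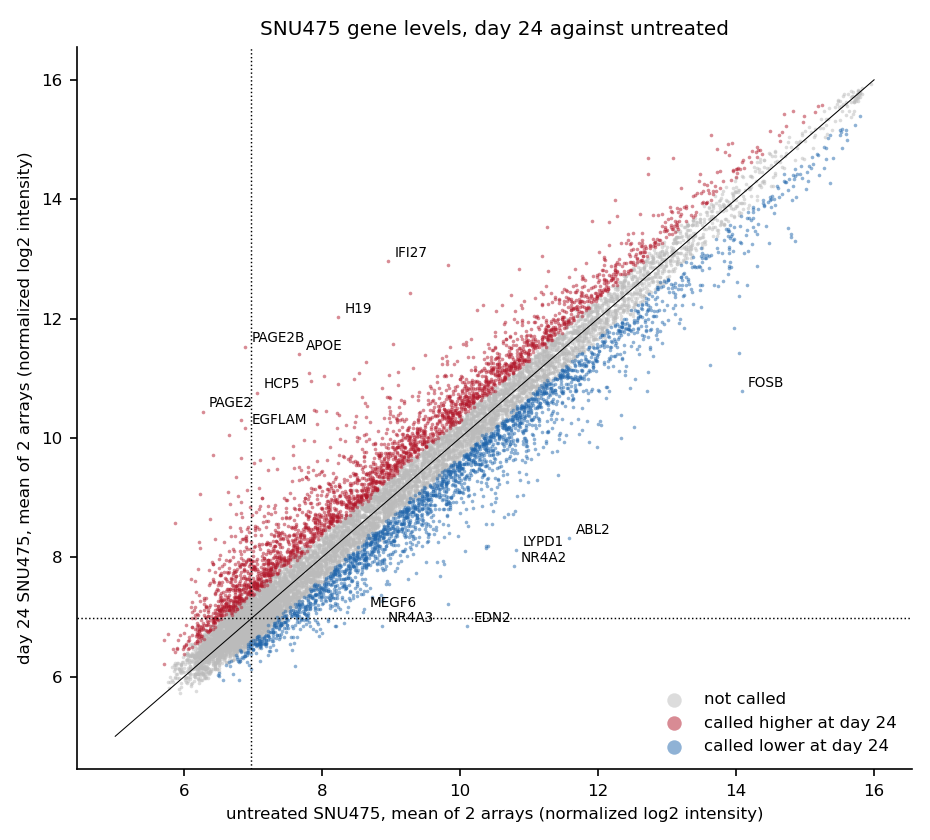
Mean level of each of the 15297 genes tested in untreated SNU475 (x axis, 2 arrays) and at day 24 (y axis, 2 arrays), both as normalized log2 intensity. Red points were called higher (2828 genes), blue points lower (2426) and grey points neither; the diagonal marks equal levels and dotted lines mark the background threshold of 6.974.

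Among genes above background in both groups, IFI27, a mitochondrial protein gene of the interferon response, showed the largest increase. Its levels were 9.03 and 8.89 in untreated cells and 12.96 and 12.96 at day 24. Both day 24 arrays lay far above both untreated arrays, a log2 fold change of 4.0 ± 0.14 (SE, n = 2 arrays a group) or 16-fold (limma, adjusted p = 2.68e-18). H19, a non-coding RNA expressed from the maternal allele in fetal liver, read 8.19 and 8.27 untreated and 11.86 and 12.18 at day 24. The day 24 arrays again did not overlap with the untreated ones, and the increase was 3.79 ± 0.14 on the log2 scale, 13.8-fold (limma, adjusted p = 3.79e-18). APOE, which carries lipids in lipoproteins, went from 7.83 and 7.52 to 11.49 and 11.32, an increase of 3.73 ± 0.12 or 13.3-fold. HCP5, a non-coding RNA gene within the major histocompatibility region, lay just above the background threshold in untreated cells at 7.11 and 7.0. At day 24 it reached 10.61 and 10.90, a 13-fold increase, and both treated arrays were well clear of the threshold.

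Further large increases involved stress, matrix and secretory genes. NUPR1, a stress-induced chromatin protein, rose from 7.78 and 7.85 to 11.06 and 11.11, 9.64-fold, with a log2 change of 2.95 on its other probe. COL1A2, a chain of type I collagen, rose from 9.40 and 9.16 to 12.58 and 12.27, 8.85-fold (2.84 on the other probe). All day 24 arrays of both genes lay above all untreated arrays. SUN3, a nuclear envelope protein gene of the testis, rose by 3.11 ± 0.13, and SRGN, the core protein of the granule proteoglycan serglycin, by 3.07 ± 0.15 with 3.04 on a further probe. ALPL, the tissue-nonspecific alkaline phosphatase, rose by 3.01 ± 0.17 from 8.04 and 8.01 to 11.03 and 11.05. The tenth gene, the uncharacterised locus LOC105379362 on chromosome 8, rose by 2.67 ± 0.14.

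Genes that were not above background in untreated cells and were above it at day 24 made up 401 of the 2828 genes called higher, and for these the change is a bound. PAGE2B, a cancer-testis gene of the X chromosome with unknown function in somatic cells, read 7.03 and 6.73 untreated, where 1 of the 2 arrays passed the threshold, and 11.50 and 11.56 at day 24. The day 24 level was at least 23.1-fold higher (limma, adjusted p = 3.79e-18). PAGE2 read 5.98 and 6.56 untreated and 10.42 and 10.47 at day 24, at least 11.1-fold, and PAGE5 was at least 8.35-fold higher with 3.69 on its other probe against 3.39 on the one used. Probes of PAGE2 and PAGE2B may bind each other's transcripts, so the 2 genes cannot be separated with certainty. PTGDS, which makes prostaglandin D2, read 6.74 and 6.89 untreated and 10.18 and 10.42 at day 24, at least 10-fold higher. EGFLAM, the matrix protein pikachurin, was at least 9.15-fold higher (a log2 change of 1.97 on the other probe). The calcium-binding protein gene S100P was at least 6.71-fold higher, from 6.39 and 6.43 to 9.70 and 9.74. OCIAD2 was at least 6.48-fold higher on the probe used (a log2 change of 1.72 on the other probe). MYH3, the embryonic myosin heavy chain, was at least 5.61-fold higher, with 1 of 2 untreated arrays above the threshold. None of these 8 genes had day 24 arrays that overlapped with the untreated arrays.

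Of the 10 largest decreases among genes above background in both groups, 4 were of stimulus-induced transcription factors. FOSB, a component of the AP-1 factor, read 14.26 and 13.90 untreated and 10.67 and 10.88 at day 24. It fell by 3.30 ± 0.16 on the log2 scale, 9.86-fold lower (limma, adjusted p = 3.61e-15). The nuclear receptor NR4A2 read 10.71 and 10.85 untreated and 7.87 and 7.84 at day 24, 7.61-fold lower, with -2.77 on its other probe. KLF6, a zinc finger factor, fell by 2.61 ± 0.12 from 13.96 and 14.11 to 11.49 and 11.37. ATF3, a stress-induced bZIP factor, read 13.62 on both untreated arrays and 11.22 on both day 24 arrays, 5.29-fold lower, with -1.96 on its other probe. In each of these 4 genes both day 24 arrays were below both untreated arrays.

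The other large decreases concerned genes of varied roles. ABL2, a cytoplasmic tyrosine kinase that acts on the actin skeleton, read 11.46 and 11.70 untreated and 8.22 and 8.42 at day 24, a decrease of 9.57-fold. Its further probes gave log2 changes of -3.91 and -0.62, so the size of the change differs between probes of ABL2. LYPD1, a modulator of nicotinic receptors, fell by 2.69 ± 0.16 (-1.60 on the other probe), the secreted synapse organiser CBLN2 fell by 2.61 ± 0.14 and TMEM158, a membrane protein induced by Ras, fell by 2.34 ± 0.20. RCC1, the exchange factor of the nuclear GTPase Ran, fell by 2.21 ± 0.13, with -0.51 and -0.91 on its other probes. NBPF9 fell by 2.34 ± 0.17, but a further probe gave -0.23, and the gene belongs to a family of near-identical copies, which makes its value uncertain.

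Of the 2426 genes called lower, 174 were above background untreated and not at day 24. EDN2, which encodes the vasoconstrictor peptide endothelin 2, read 10.15 and 10.05 untreated and 6.77 and 6.92 at day 24, at least 8.7-fold lower (limma, adjusted p = 1.18e-16). NR4A3, the third member of the NR4A receptors, read 8.97 and 8.74 untreated and 6.98 and 6.72 at day 24, with 1 of 2 treated arrays above the threshold. It was at least 3.68-fold lower, while its other probe gave 0.01. IL11, a cytokine of the interleukin 6 family, read 8.77 and 8.67 untreated and 7.73 and 6.95 at day 24, at least 2.58-fold lower. The day 24 arrays of IL11 differed from each other more than those of most genes named here, yet both stayed below the untreated arrays. MEGF6, CCDC71, the cytoskeletal linker gene DST, the adhesion receptor TENM4 and the mitochondrial myosin MYO19 were at least 2.75-fold, 2.53-fold, 2.33-fold, 2.32-fold and 2.1-fold lower. MEGF6, IL11 and MYO19 each had 1 of 2 day 24 arrays above the threshold. For DST, 5 further probes gave log2 changes from -0.46 to 0.72, and with the mean of its probes the change was -0.15 (adjusted p = 0.272), so the call of DST rests on 1 probe. For MYO19 the other probes gave -0.33 and -0.49.

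**Figure D2:**
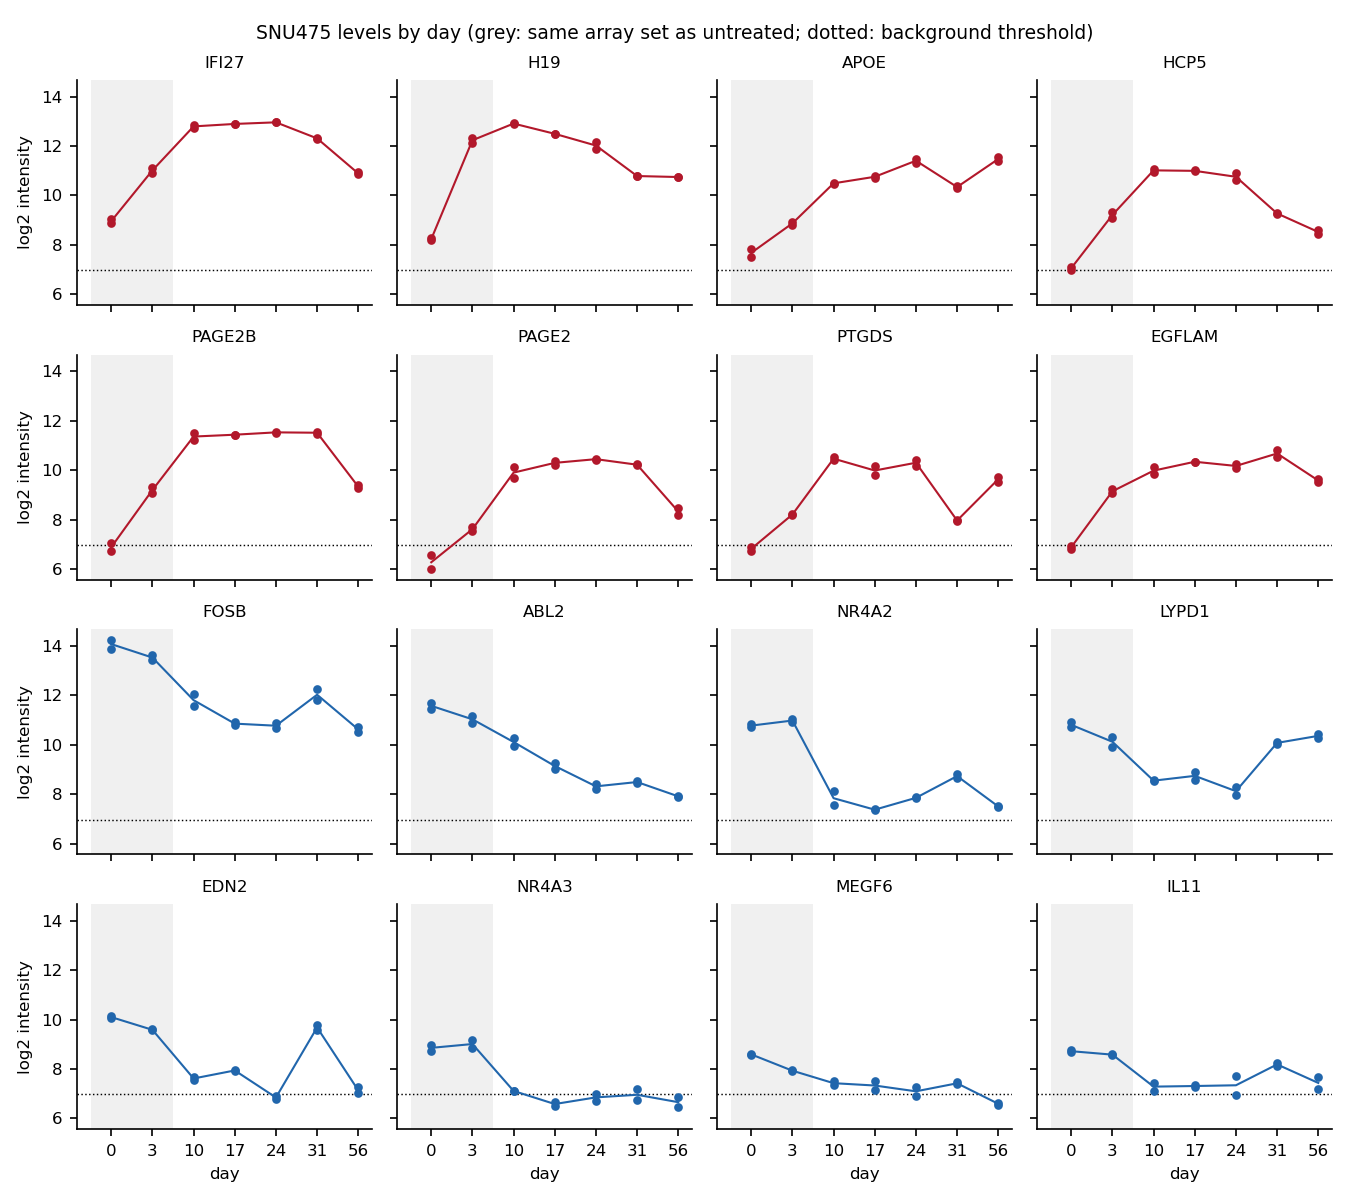
Levels of 16 genes in SNU475 by day (x axis, equally spaced; y axis, normalized log2 intensity), the first 4 of each class of change; points are single arrays and lines join means of 2. The grey area marks the days in the array set of the untreated arrays and the dotted line the background threshold of 6.974. IFI27 rose from a mean of 8.96 untreated to 11.02 at day 3 and 12.96 at day 24, and EDN2 stood at 9.68 at day 31 against 6.85 at day 24.

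Day 24 was set against its neighbours in time, which share its array set. Compared with day 17, 2062 genes differed (13.5% of those tested), 1010 higher (6.6%) and 1052 lower (6.88%). That count was 1120 without day 24 replicate 1 and 1216 without day 24 replicate 2, and 313 when the test asked for a fold of at least 1.2. Compared with day 31, 4511 differed (29.5%), 2521 higher (16.5%) and 1990 lower (13%). Of the 36 genes named above, chosen for their change from untreated, 17 differed between days 24 and 17 and 26 between days 24 and 31. Between days 24 and 31, 12 of the 18 genes named as increases were higher at day 24 and 1 was lower, and 13 of the 18 named as decreases were lower. Those genes were chosen on the same day 24 arrays, so these counts describe that choice in part.

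The named genes followed several courses. PAGE2B had means of 9.20 at day 3, 11.36 at day 10, 11.44 at day 17, 11.53 at day 24 and 11.51 at day 31, and stood at 9.33 at day 56. Its level at day 24 did not differ from day 31 beyond the spread, at 0.01 (limma, adjusted p = 0.962). HCP5 reached 11.02 at day 10 and 10.76 at day 24 and had come down to 9.27 at day 31, a difference of 1.49 (limma, adjusted p = 1.83e-09). NUPR1 was at 7.92 at day 3, 11.08 at day 24 and 8.97 at day 31, which is 2.12 lower than at day 24. APOE had risen by day 3, from a mean of 7.67 untreated to 8.87 in the same array set (limma, adjusted p = 9.08e-08). It stood at 11.40 at day 24, 10.34 at day 31 and 11.47 at day 56. ALPL went up later. Its mean of 8.32 at day 3 did not differ from untreated beyond the spread (limma, adjusted p = 0.454). ALPL stood at 11.04 at day 24 and 11.54 at day 56. H19 was already at 12.24 at day 3, in the array set of the untreated arrays, and at 12.02 at day 24. Among the decreases, EDN2, not above background at day 24, had a fitted difference of -2.83 from day 31, whose size is limited by the background, and LYPD1 was 1.96 lower than at day 31. ABL2 stood at 8.32 at day 24 and 8.49 at day 31, a difference of -0.17 that did not pass (limma, adjusted p = 0.473).

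**Figure D3:**
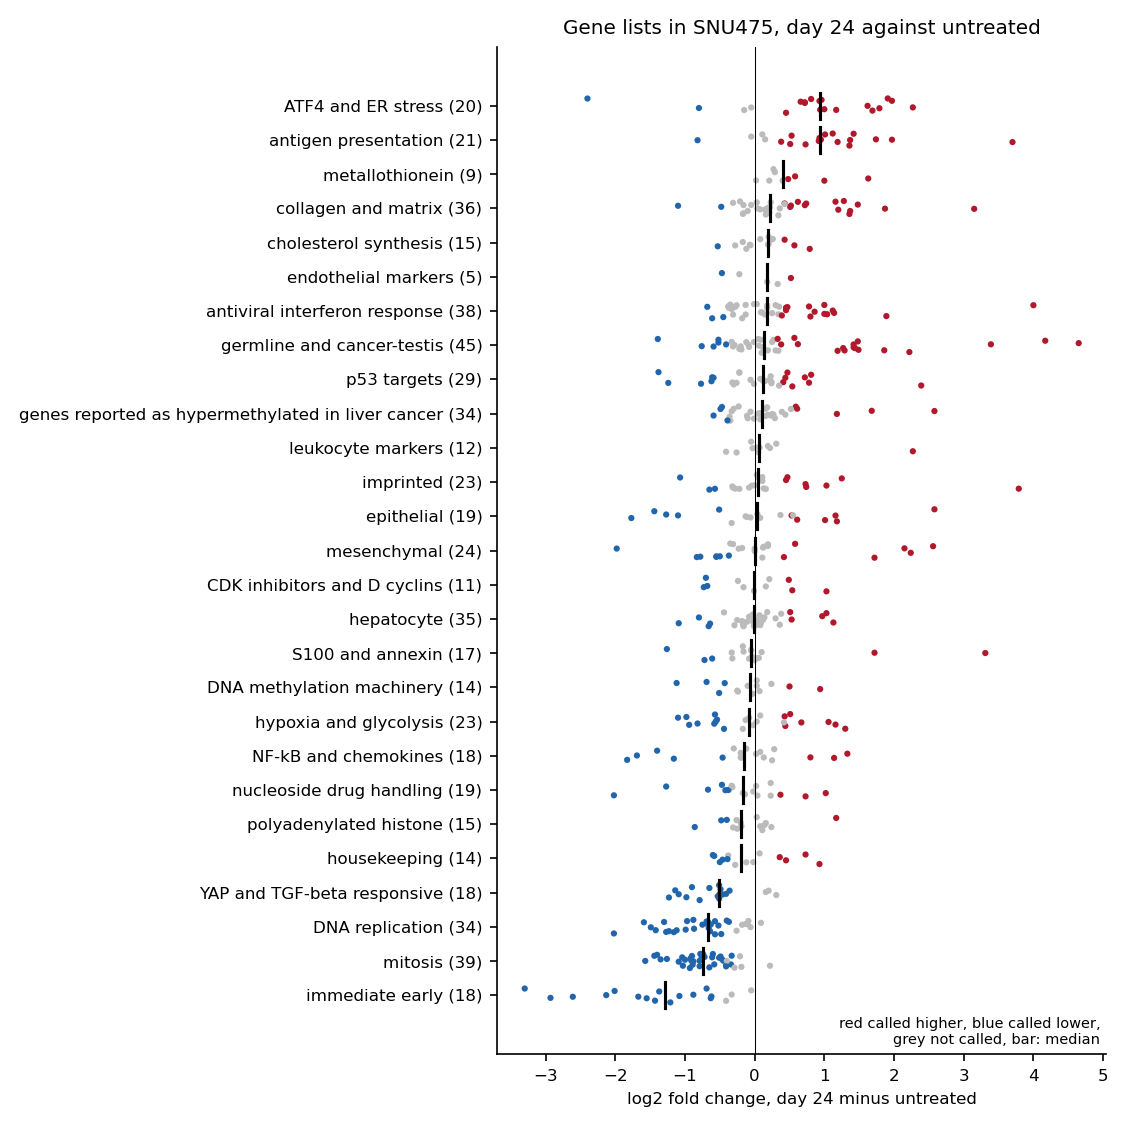
Log2 fold change at day 24 against untreated SNU475 (x axis) of every measured member of 27 gene lists (y axis, number measured in brackets), with red points called higher, blue lower and grey not called, and a black bar at the list's median. Medians run from -1.29 for immediate early genes to 0.94 for ATF4 and ER stress genes and for antigen presentation genes, against 0.02 over all genes.

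Cancer-testis genes, which are expressed in germ cells and methylated elsewhere, changed in part. There were 17 higher and 6 lower among 45 measured, a median of 0.13 against 0.02 over all genes, of which 18.5% were higher and 15.9% lower. Of the 45, 8 were above background at day 24 but not in untreated cells and 13 in neither. Beside the PAGE genes, MAGEA4 read 6.86 and 6.46 untreated and 8.91 and 8.87 at day 24, at least 3.77-fold higher, while its other probe gave 0.36. MAGE family probes may bind related transcripts. Between days 24 and 31, 2 of the 45 were higher and 8 lower at day 24, where 16.5% and 13% of all genes were. The median of the same genes at day 24 was 0.28 in HepG2 and 0.70 in SNU398.

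Imprinted genes, which keep 1 parental allele methylated, had 7 of 23 higher (30.4%) and 3 lower (13%), with a median of 0.05. Over all genes 18.5% were higher and 15.9% lower. L3MBTL1, a chromatin compacting protein expressed from the paternal allele, read 7.80 and 7.97 untreated and 9.12 and 9.16 at day 24, 2.38-fold higher, with 0.82 and 1.05 on other probes. CDKN1C, an inhibitor of cyclin-dependent kinases expressed from the maternal allele, rose 2.04-fold, from 8.18 and 8.09 to 9.16 on both arrays. PHLDA2, a growth-restraining gene on chromosome 11 like H19 and CDKN1C, went the other way and fell by 1.07 ± 0.13. Beside H19, the list thus held increases and decreases on that chromosome.

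Among 14 measured genes of DNA methylation there were 2 increases (14.3%) and 4 decreases (28.6%), where 18.5% of all genes were higher and 15.9% lower. UHRF1, which guides the maintenance methyltransferase to newly made DNA, read 11.08 and 10.86 untreated and 9.78 and 9.93 at day 24. It fell by 1.12 ± 0.14 (limma, adjusted p = 2.45e-07), with -0.10 on its other probe, and was at 11.66 at day 31, 1.81 above day 24. The maintenance enzyme DNMT1 read 13.51 and 13.27 untreated and 12.95 and 12.81 at day 24, a change of -0.51 ± 0.13 (limma, adjusted p = 0.00354). Without untreated replicate 1 that call was lost (-0.39, adjusted p = 0.0808), and likewise without day 24 replicate 2. HELLS, a chromatin remodeller needed for methylation, fell by 0.69 ± 0.13. Of the enzymes that set new methylation, DNMT3B rose by 0.50 ± 0.12 from 9.03 and 9.02 to 9.54 and 9.52, with -0.50, 0.47 and 0.47 on its other probes, and DNMT3A was not above background on either day. DNMT3L, their germline cofactor, rose by 0.94 ± 0.20 from 7.10 and 7.55 to 8.31 and 8.24, with 0.44 on the other probe.

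Genes of antigen presentation were mostly higher: of 21 measured, 17 rose (81%) and 1 fell (4.76%), where 18.5% of all genes were higher and 15.9% lower. A further 3 stayed short of the threshold, and the median was 0.94. HLA-B, which presents peptides to cytotoxic T cells, read 12.79 and 12.65 untreated and 14.76 and 14.61 at day 24, 3.91-fold higher (limma, adjusted p = 3.67e-12). HLA-F, a non-classical class I gene, rose 3.34-fold with 1.72 on its other probe, and HLA-DMB, which helps to load class II molecules, rose 2.67-fold from 8.51 and 8.77 to 10.19 and 9.93. B2M, the light chain of class I molecules, rose by 0.73 ± 0.11. HLA genes are similar in sequence and polymorphic, so a probe may read more than 1 of them. The comparison with day 31 was on arrays of 1 set and used the same day 24 arrays. There, 15 of the 21 were higher at day 24 and none lower, where 16.5% and 13% of all genes were. The list's median was 0.21 at day 3, 0.68 at day 10, 0.65 at day 17, 0.35 at day 31 and 0.36 at day 56, and at day 24 it was 0.21 in HepG2 and -0.02 in SNU398.

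The antiviral interferon genes changed in part, with 14 of 38 higher (36.8%) and 3 lower (7.89%), a median of 0.18. Over all genes 18.5% were higher and 15.9% lower. IFITM1, which blocks the entry of viruses, read 6.99 and 6.92 untreated, with 1 of 2 arrays above the threshold, and 8.79 and 8.90 at day 24, at least 3.65-fold higher. Its neighbour IFITM3 rose 2.17-fold from 13.74 and 13.71 to 14.98 and 14.70, and the RNA sensor gene DHX58 rose 2.2-fold from 7.47 and 7.16 to 8.63 and 8.28. IFITM probes may bind related transcripts. Compared with day 31, 11 of the 38 were higher at day 24 and 8 lower, where 16.5% and 13% of all genes were.

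Interferon-induced genes carry elements in their promoters that bind STAT and IRF factors, and the letters GAAA, any 2 bases and GAAA again, searched on both strands and counted once for each window, are a simple form of that element. The letters stood in the window of 2.93% of the 11967 tested genes with a window, in 21 of 30 antiviral genes (70%) and in 7 of 18 antigen presentation genes (38.9%). Of the genes at least 2-fold higher 5% had them, and of those at least 2-fold lower 2.64%. Stretches of 30 bases from 4 windows of antigen presentation genes and from that of IFI27 are shown with the letters in capitals, overlapping matches together, as examples of what the search found. The second match of IFI27 runs past the end of its stretch. PSMB10, TAP1, TAP2 and B2M are among the antigen presentation genes with a match and were picked for display after their sequences were seen.
IFI27: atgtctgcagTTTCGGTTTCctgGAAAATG
B2M: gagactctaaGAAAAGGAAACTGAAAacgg
PSMB10: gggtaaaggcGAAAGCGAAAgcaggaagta
TAP1: aggcggccgcTTTCGATTTCGCTTTCccct
TAP2: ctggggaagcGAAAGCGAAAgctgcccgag
A match is a description of the letters and does not show that a factor binds there.

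Genes of the ATF4 and endoplasmic reticulum stress response, which raise amino acid supply and protein folding when cells lack amino acids or hold unfolded protein, rose in 16 of 20, with 2 lower and 2 not passing (median 0.94). TRIB3, a pseudokinase that restrains ATF4, read 11.30 and 11.22 untreated and 13.46 and 13.59 at day 24, 4.82-fold higher (limma, adjusted p = 6.02e-14). ASNS, which makes asparagine, rose 3.92-fold from 10.75 and 10.96 to 12.81 and 12.84 (1.42 on its other probe), and DDIT4, an inhibitor of the growth kinase mTOR, rose 3.75-fold from 9.61 and 9.36 to 11.34 and 11.44. ATF3, described above, went against the list. The list's median was -0.03 at day 3, 0.84 at day 10, 0.83 at day 17, 0.04 at day 31 and 0.86 at day 56. In the same array set, 15 of the 20 were higher at day 24 than at day 31 and 2 lower, where 16.5% and 13% of all genes were. ASNS differed by 2.03 between those days (limma, adjusted p = 9.13e-13). At day 24 the median was 0.06 in HepG2 and 0.05 in SNU398.

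An ATF4 target often carries a composite element that binds C/EBP and ATF factors. The letters TGATGNAA, searched on both strands and added to the plan after the data had been seen, stood in 2.16% of all windows and in 3 of 18 windows of the list (16.7%), those of ASNS, ATF3 and CHAC1. They are given in stretches of 30 bases because ASNS and ATF3 moved in opposite directions.
ASNS: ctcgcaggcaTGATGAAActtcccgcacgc
ATF3: aaggtcaggaTGATGGAAggctgtcatatt
CHAC1: tcccctgccgTTGCATCActcctgccaggt
In CHAC1, which breaks down glutathione, the match is on the opposite strand.

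Cell cycle genes were lower at day 24 almost throughout their lists. Of 39 mitosis genes none rose, 34 fell (87.2%) and 5 did not pass (median -0.74). Of 34 DNA replication genes none rose, 27 fell (79.4%) and 7 did not pass (median -0.67). The shares over all genes were 15.9% lower and 18.5% higher. NCAPG, a condensin subunit that compacts chromosomes, read 11.40 and 11.25 untreated and 9.71 and 9.80 at day 24, 2.97-fold lower (limma, adjusted p = 8.03e-10). The spindle motor KIF11, the abscission protein CEP55 and the kinetochore protein CENPF were 2.72-fold, 2.63-fold and 2.56-fold lower. RRM2, the subunit of ribonucleotide reductase that limits deoxynucleotide supply, read 9.52 and 9.89 untreated and 7.77 and 7.60 at day 24, 4.07-fold lower (limma, adjusted p = 8.24e-10). GINS2 and CDC45, parts of the replicative helicase, and its core subunit MCM4 were 3.02-fold, 2.68-fold and 2.8-fold lower. In all 8 genes the arrays of the groups did not overlap.

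Both lists were also lower at day 24 than at day 31, on arrays of 1 set. There, 38 of 39 mitosis genes were lower and none higher (median -0.92), against 13% lower over all genes, and 30 of 34 replication genes were lower and none higher (median -0.82). NCAPG had means of 11.14 at day 3, 9.65 at day 10, 10.56 at day 17, 9.76 at day 24, 11.44 at day 31 and 10.56 at day 56. RRM2 stood at 7.68 at day 24 and at 9.84 at day 31, a difference of 2.16 (limma, adjusted p = 7.27e-10). The median of the mitosis list against untreated cells was -0.11 at day 3, -0.94 at day 10, -0.58 at day 17, 0.25 at day 31 and 0.10 at day 56. Against day 17, 4 of the 39 mitosis genes were lower at day 24 and 2 higher, where 6.88% and 6.6% of all genes were. In HepG2 the median of the list at day 24 was -0.63 and in SNU398 -0.05.

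Regulators of the cycle showed smaller and mixed changes. Of 11 cyclin-dependent kinase inhibitors and D cyclins 3 rose (27.3%), 3 fell (27.3%) and 5 did not pass. Over all genes 18.5% were higher and 15.9% lower. CCND3, a D cyclin, fell by 0.73 ± 0.12, the kinase gene CDK6 fell by 0.68 ± 0.14 and the inhibitor CDKN2B fell by 0.70 ± 0.14. CDKN1A, the inhibitor p21, read 11.79 and 11.69 untreated and 12.28 and 12.10 at day 24, a change of 0.44 ± 0.14 (limma, adjusted p = 0.0114). With median scaling the change of CDKN1A was 0.31 and did not pass (adjusted p = 0.0808), nor did it without untreated replicate 2 or without day 24 replicate 1. Of 29 targets of p53, 8 rose (27.6%), 6 fell (20.7%) and 15 did not pass (median 0.12). GDF15, a secreted stress cytokine that also responds to ATF4, rose 5.25-fold from 8.24 and 7.88 to 10.33 and 10.57. BAX, which opens the outer mitochondrial membrane in apoptosis, fell by 1.24 ± 0.15 (-0.42 on its other probe), the oxidoreductase gene TP53I3 fell by 1.38 ± 0.13 with 0.03 on its other probe, and the death receptor gene TNFRSF10B rose by 0.81 ± 0.13 with 0.01 and 0.70 on others.

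Immediate early genes are induced by growth factors and stress without new protein synthesis. Of 18 measured, 15 fell (83.3%), 3 did not pass and none rose (median -1.29), where 15.9% of all genes were lower and 18.5% higher. FOS, a relative of FOSB and also a component of AP-1, read 14 and 13.95 untreated and 11.86 and 11.83 at day 24, 4.38-fold lower (limma, adjusted p = 4.83e-14). The list's median was -0.29 at day 3, -0.96 at day 10, -1.20 at day 17, -0.76 at day 31 and -0.70 at day 56. On arrays of the same set, 9 of the 18 were lower at day 24 than at day 31 and 1 higher, where 13% and 16.5% of all genes were. Against day 17 there were 2 lower and 1 higher, where 6.88% and 6.6% of all genes were. In HepG2 and SNU398 the medians at day 24 were 0.11 and 0.04.

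Genes that respond to YAP or TGF-beta report on cell contact, tension and matrix signals. Of 18 measured, 15 fell (83.3%), 3 did not pass and none rose (median -0.51), where 15.9% of all genes were lower and 18.5% higher. CCN1, a matricellular protein, read 14.78 and 14.72 untreated and 13.47 and 13.57 at day 24, 2.34-fold lower. Its relative CCN2 was 2.12-fold lower (-1.68 on the other probe), the inhibitory SMAD7 2.2-fold and the kinase NUAK2 1.97-fold. At day 31 CCN1 stood at 13.50 and did not differ from day 24 beyond the spread, at 0.02 (limma, adjusted p = 0.931). Among 18 NF-kB and chemokine genes there were 3 increases (16.7%) and 5 decreases (27.8%), where 18.5% of all genes were higher and 15.9% lower. The neutrophil chemokines CXCL2 and CXCL8 and the cytokine IL6 fell by 1.83 ± 0.18, fell by 1.40 ± 0.17 and fell by 1.69 ± 0.16, whereas the adhesion molecule ICAM1 rose by 1.33 ± 0.20 from 7.31 and 7.66 to 8.83 and 8.80.

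The hepatocyte identity of the line was low on both days. Of 35 measured hepatocyte markers, 12 and 14 were above background on the untreated arrays and 14 and 15 on the day 24 arrays, and 20 were above it in neither group. AFP, the fetal plasma protein, read 8.74 and 8.77 untreated and 8.17 and 8.06 at day 24, a change of -0.64 ± 0.18 (limma, adjusted p = 0.00573) that did not pass without day 24 replicate 2 (adjusted p = 0.0521). ALB, adult albumin, read 8.36 and 8.48 and then 8.26 and 8.23, a change of -0.17 ± 0.14 (limma, adjusted p = 0.382). Of the list, 5 rose (14.3%), 4 fell (11.4%) and 26 did not pass, where 18.5% of all genes were higher and 15.9% lower. The secreted VTN and the liver transcription factor CEBPA rose 2.18-fold and 2.04-fold, while the pioneer factor FOXA1 fell by 1.09 ± 0.12 from 11.86 and 11.97 to 10.86 and 10.77, and the plasma protein gene AMBP fell by 0.80 ± 0.14.

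Epithelial and mesenchymal lists moved in both directions. Of 19 epithelial genes 6 rose (31.6%) and 5 fell (26.3%), where 18.5% of all genes were higher and 15.9% lower. SPINT2, an inhibitor of serine proteases and also on the list of genes reported as methylated in liver cancer, read 6.74 and 6.77 untreated and 9.45 and 9.22 at day 24, at least 5.14-fold higher. The keratins KRT19 and KRT8 fell by 1.77 ± 0.12 and fell by 1.44 ± 0.15, and the epithelial transcription factor gene ELF3 fell by 1.27 ± 0.12. Of 24 mesenchymal genes 6 rose (25%) and 7 fell (29.2%). THY1, a surface glycoprotein of fibroblasts, read 6.98 and 7.05 untreated and 9.53 and 9.62 at day 24, 5.91-fold higher, the TGF-beta co-receptor ENG rose 4.72-fold and the growth factor receptor PDGFRB 4.43-fold. SNAI2, which represses epithelial genes, was 3.94-fold lower. VIM, the main intermediate filament of mesenchymal cells, was high on all arrays, 15.01 and 15.15 untreated and 14.68 and 14.37 at day 24, a change of -0.55 ± 0.13 (limma, adjusted p = 0.00102) that did not pass without day 24 replicate 2 (adjusted p = 0.0503).

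Collagen and matrix genes rose in 14 of 36 (38.9%), with 2 lower (5.56%) and 20 not passing (median 0.22). Over all genes 18.5% were higher and 15.9% lower. COL1A1, the partner of COL1A2 in type I collagen, read 11.27 and 11.08 untreated and 13.05 on both day 24 arrays, 3.67-fold higher (limma, adjusted p = 1.61e-12). The small proteoglycan DCN rose 2.79-fold, with 1.0, 0.94 and -0.01 on its other probes, and COL16A1, a collagen found at fibril surfaces, rose 2.56-fold. Against day 31, 13 of the 36 were higher at day 24 and 2 lower, where 16.5% and 13% of all genes were. At day 56 the median of the list stood at 0.86.

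Metabolic and other lists moved in both directions or in part. Over all genes 18.5% were higher and 15.9% lower. Of 23 hypoxia and glycolysis genes 7 rose (30.4%) and 9 fell (39.1%). The glucose transporter SLC2A3 rose 2.46-fold, the collagen crosslinking oxidase LOX 2.23-fold and the aldolase ALDOC 2.08-fold, while the more general transporter SLC2A1 was 2.15-fold lower. Among 15 cholesterol synthesis genes there were 3 increases (20%) and 1 decrease (6.67%), with HMGCS1 at 0.79 ± 0.12, SC5D at 0.57 ± 0.15, DHCR7 at 0.43 ± 0.13 and PMVK at -0.53 ± 0.12. The call of DHCR7 was lost with median scaling (0.25, adjusted p = 0.139 in limma) and without untreated replicate 1 or day 24 replicate 2. Of 9 metallothionein genes, which bind zinc and copper, 4 rose and 5 did not pass, with MT1F at 1.63 ± 0.14, MT1X at 1.0 ± 0.17 and MT1E at 0.58 ± 0.15 (-0.04 on its other probe; its call was lost without day 24 replicate 1), and metallothionein probes may bind each other's transcripts. Of 17 S100 and annexin genes 2 rose (11.8%) and 3 fell (17.6%), with S100A4 at 1.72 ± 0.17, S100A3 at -1.26 ± 0.16 and ANXA10 at -0.72 ± 0.15 beside S100P. Of 15 polyadenylated histone genes 1 rose (6.67%) and 3 fell (20%). H2AC25 gave 1.17 ± 0.17, H2BC4 -0.86 ± 0.15, H4C8 -0.48 ± 0.16 and H3C4 -0.40 ± 0.15. The call of H3C4 was lost without any 1 of the 4 arrays and that of H4C8 without untreated replicate 2 or day 24 replicate 2, and histone probes may bind several copies.

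Of 34 genes reported as hypermethylated in liver cancer 5 rose (14.7%), 4 fell (11.8%) and 25 did not pass (median 0.10). Both shares lay near those over all genes, 18.5% higher and 15.9% lower. Of the 34, 11 were above background in neither group, as were 2744 of the 15297 genes tested. BMP4, a secreted growth factor, read 6.43 and 6.73 untreated and 8.51 and 8.0 at day 24, at least 2.44-fold higher. The cadherin CDH1, which joins epithelial cells, rose 2.27-fold from 9.0 and 9.16 to 10.34 and 10.18, and the DNA repair gene MGMT rose 1.53-fold. Of 19 genes that handle nucleoside drugs 3 rose (15.8%), 6 fell (31.6%) and 10 did not pass. CDA, which deaminates and so inactivates cytidine analogues, read 9.45 and 9.39 untreated and 10.43 and 10.46 at day 24, 2.03-fold higher. The nucleoside transporter SLC29A2 rose 1.66-fold, a call lost without day 24 replicate 2 (adjusted p = 0.0517 in limma), and TYMS, the enzyme of thymidylate synthesis that is also on the replication list, was 2.41-fold lower.

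Of 12 measured leukocyte and red cell markers, 5 and 4 were above background on the untreated arrays and 6 on each day 24 array. In this list 1 gene rose and 11 did not pass, with a mean level of 7.58 and 7.53 on the untreated arrays and of 7.76 on both day 24 arrays, and the part of such cells in the results was not tested. The marker that rose was TYROBP, an adaptor of immune receptors, from 6.27 and 6.48 to 8.57 and 8.71, at least 3.17-fold. Of the list, 6 were not above background in either group, among them LYZ, CD3D and HBB, which were named after their values were seen. Of 5 endothelial markers 2 were above background on each untreated array and 2 and 3 on the day 24 arrays. In that list 1 gene rose and 1 fell, ESAM with -0.47 ± 0.15, a call lost without untreated replicate 1 or day 24 replicate 2. Of 14 housekeeping genes, which are often taken as constant, 4 rose (28.6%) and 5 fell (35.7%), a median of -0.20. Over all genes 18.5% were higher and 15.9% lower. The lysosomal enzyme GUSB gave 0.93 ± 0.10, POLR2A of RNA polymerase II -0.60 ± 0.13 and the glycolytic enzyme PGK1 -0.58 ± 0.15.

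The changes at day 24 were compared with those in HepG2 and SNU398, which received the same doses and whose arrays are not shared with SNU475. Of the 454 genes at least 2-fold higher in SNU475, 52 were also at least 2-fold higher in HepG2, which is 11.5% of the SNU475 genes and 12.8% of the 405 HepG2 genes (2.65% of genes tested). With SNU398, 37 genes were shared, 8.15% of the SNU475 genes and 17.5% of the 211 SNU398 genes (1.38%). At least 2-fold lower genes numbered 185 in HepG2 (1.21%), of which 15 were shared with the 294 of SNU475 (5.1% and 8.11% of each list), and 70 in SNU398 (0.458%), of which 5 were shared (1.7% and 7.14%). Changes of at least 2-fold in the opposite direction were seen for 15 of the 454 higher genes in HepG2 and 12 in SNU398, and for 14 of the 294 lower genes in HepG2 and 9 in SNU398. No gene was at least 2-fold lower in all 3 lines and 13 were higher in all 3.

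Among those 13 were PAGE2B with log2 changes of 4.65 in SNU475, 2.89 in HepG2 and 3.49 in SNU398, PAGE5 with 3.39, 2.68 and 2.80, PAGE2 with 4.17, 2.21 and 2.05 and LOC105379362 with 2.67, 1.77 and 1.63. The PAGE values are fitted, with untreated means below background in every line (6.88, 6.28 and 6.43 for PAGE2B), so the changes have no settled size. Of the others, named here after their values were seen, VCX, VCX3A and VCX3B are near-identical X-linked genes of the testis that 1 probe cannot separate, and MAEL acts in the silencing of transposons in germ cells. Outside the germline genes, GPNMB, a glycoprotein of lysosomes and melanosomes, gave fitted values of 2.63, 1.47 and 2.02 and CASP1, the protease of inflammasomes, 1.19, 1.24 and 1.69. Untreated means below background were those of GPNMB in HepG2 and SNU398 and of CASP1 in SNU398.

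**Figure D4:**
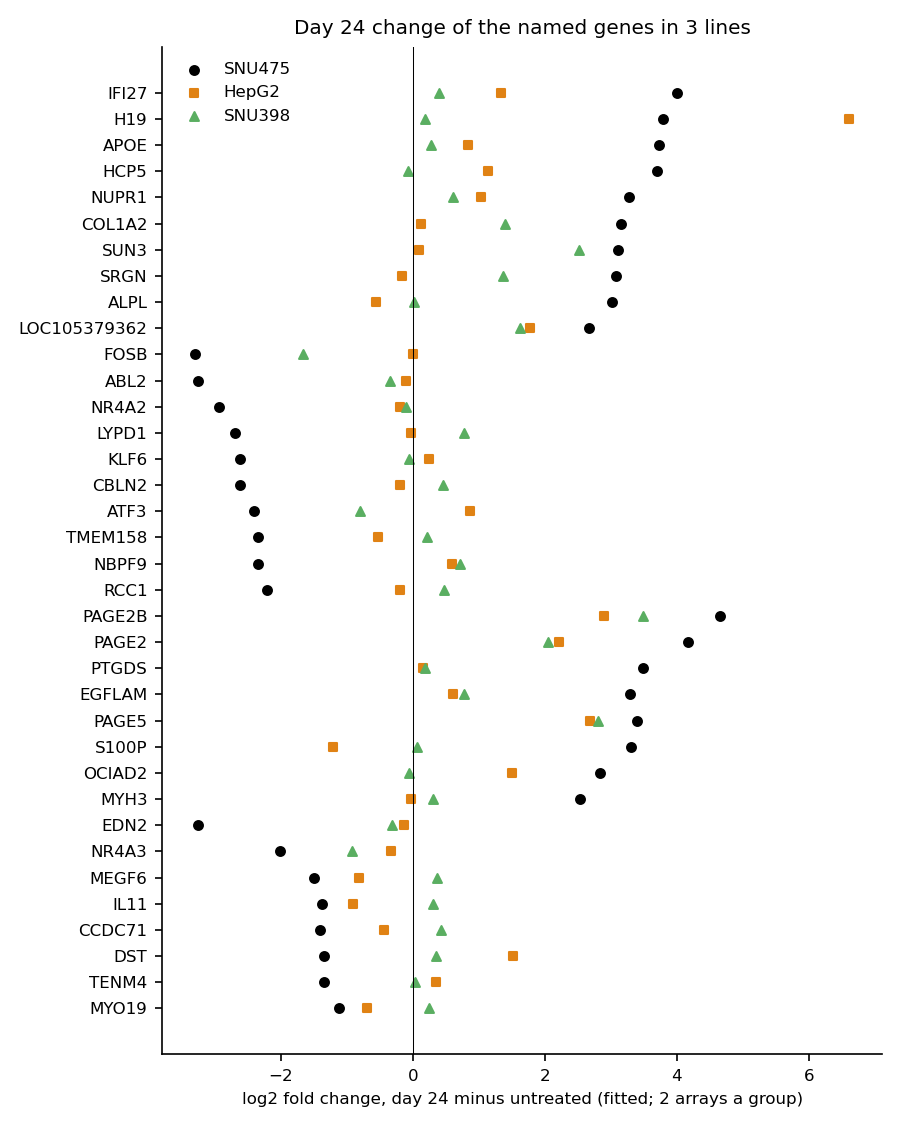
Log2 fold change at day 24 against untreated cells (x axis) of the 36 named genes (y axis) in SNU475 (black circles), HepG2 (orange squares) and SNU398 (green triangles), each from 2 arrays a group. Genes were chosen for their change in SNU475; H19 changed by 6.61 in HepG2 against 3.79 in SNU475; fitted values of genes below background in a line, such as H19 in untreated HepG2 and in SNU398, are not measured changes.

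Between SNU475 and HepG2, 4530 genes changed to a different extent at day 24 (29.6% of those tested), and between SNU475 and SNU398, 5350 (35%). Since the 36 named genes were chosen for a large change in SNU475, their differences from the other lines describe that choice in part. COL1A2 changed by 3.15 in SNU475, 0.13 in HepG2 and 1.39 in SNU398. SUN3 changed by 3.11 in SNU475 and 2.52 in SNU398. COL1A2 was not above background in HepG2 on either day nor in untreated SNU398, and SUN3 was not in untreated SNU398, where its mean was 6.40, so those changes are limited by the background and their size is not compared between lines. ATF3, above background in all 3 lines on both days, changed by -2.40, 0.87 and -0.80. The SNU398 day 24 and untreated arrays lie in different array sets as those of SNU475 do, whereas those of HepG2 lie in 1 set.

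**Figure D5:**
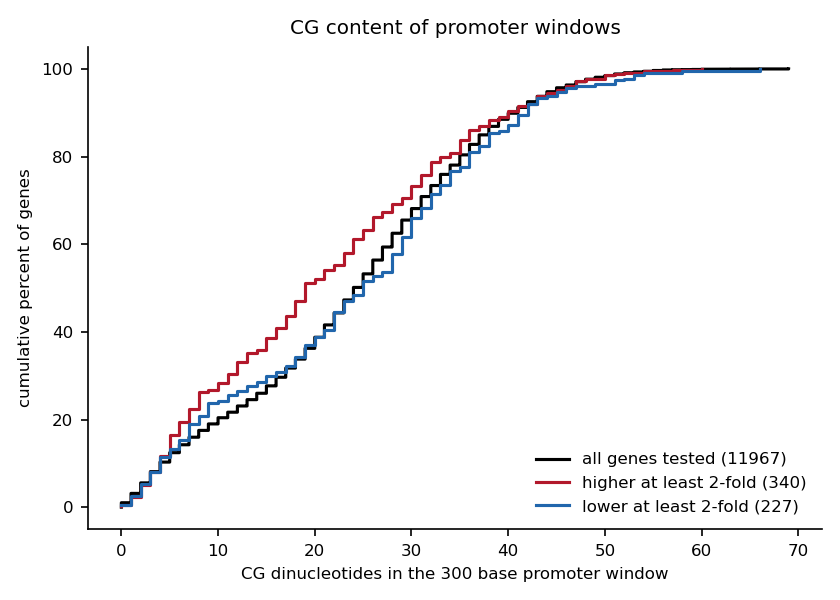
Cumulative percent of genes (y axis) by the number of CG dinucleotides in the 300 bases of the promoter window (x axis), for all 11967 tested genes with a window (black), the 340 at least 2-fold higher at day 24 (red) and the 227 at least 2-fold lower (blue). The red curve lies to the left of the black one, with medians of 19 and 24.

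The number of CG dinucleotides in the promoter window was counted for the genes that RefSeq's table covers. The median was 24 over the 11967 genes, 19 over 340 of the 454 genes at least 2-fold higher and 25 over 227 of the 294 genes at least 2-fold lower. For genes at least 2-fold higher that were not above background in untreated cells, 100 of 133 had a window and the median was 15.5. Windows with fewer than 10 CG made up 19% over all genes, 26.8% of those at least 2-fold higher, 23.8% of those at least 2-fold lower and 32% of those not above background untreated. By list, the median was 8 in antiviral genes, 13 in germline genes, 17 in antigen presentation genes, 26 in mitosis genes and 31 in replication genes. Genes on the X chromosome made up 3.97% of the genes tested, 6.61% of those at least 2-fold higher and 6.8% of those at least 2-fold lower. These counts are descriptions, and methylation at the windows was not analysed here.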

How the data were processed

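Total RNA of 34 samples was hybridised to Illumina arrays. The deposited values are linear probe intensities, 47230 probes on each array. The method by which the authors normalized the deposited intensities was not given in the sources used here. A further deposited table has 72 columns of signals and detection p-values, named by array barcode, which no label ties to a sample, so it was not used here. Gene names came from the platform's probe annotation, updated through RefSeq (GRCh38.p14): 30113 probes have 1 symbol, 8 several and 17109 none listed.

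Intensities were corrected with limma's normal-exponential model (offset 50), taken to log2 and then quantile normalized over all 34 arrays. The background threshold of 6.974 lies 1.645 spreads of 0.2981 above 6.484, the mode of the averaged sorted intensities. Probes above it in at least 1 group were kept, 29365 in all, and each gene was read from its brightest kept probe, which gave 15297 of 20046 genes, 4335 with more than 1 kept probe. The 17 groups entered 1 linear model in limma 3.58.1 (R 4.3.3), which had 17 residual and 10.9 prior degrees of freedom. P-values are two-sided and adjusted by Benjamini-Hochberg over all genes, and "rose" or "fell" means an adjusted p under 0.05. The number of arrays limits the precision: a permutation test of 2 against 2 arrays cannot go below p = 0.333. Where 1 group was not above background, "at least N-fold" sets the mean of the bright group against the higher, on each array, of the threshold and the dim value. The code was tested on simulated data.

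Named genes are the 10 largest increases and 10 largest decreases among called genes above background in both groups, the 8 largest bounds in each direction, the 4 called members of each list with the largest change, and DNMT1, DNMT3A, DNMT3B, UHRF1, CDKN1A, AFP, ALB and VIM. The comparison, the 27 lists and the rule were chosen with earlier results of these data known, so a list's count is not independent evidence of its direction, and lists were not tested. Replicate numbers were checked for pairing: the correlation of replicate differences between SNU475 groups ran from -0.04 to 0.08 over 21 pairs of groups. No shared effect of the replicate number was thus seen, which cannot show that the arrays were unpaired. Alternatives changed the normalization, the background correction, the arrays in the fit, the filter, the probe of a gene, the test, and the replicates.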

Additional observations from a re-analysis of the deposited data

Results flagged for a closer look

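The day 24 change differed between SNU475 and another line, by limma's test of that difference with an adjusted p under 0.05, for the first 4 genes of each class of change. These genes were chosen for a large change in SNU475. Values are the fitted log2 change in SNU475 minus that in the other line. Where a gene was not above background in a line, its change there could not be measured, and the size and the test of the difference rest in part on levels below background. This holds for H19 in untreated HepG2 and in SNU398, for ABL2 and LYPD1 in HepG2 and for LYPD1 in untreated SNU398. It also holds for the genes of the next paragraph, which were below background in untreated or day 24 SNU475. Several of those were below it in the other lines too, as given there. Among the increases of genes above background in both groups, IFI27 differed by 2.67 from HepG2 and by 3.62 from SNU398, APOE by 2.90 and 3.46 and HCP5 by 2.56 and 3.77, all higher in SNU475. H19 differed in both directions, by -2.82 from HepG2 and by 3.61 from SNU398. Among the decreases, FOSB differed by -3.31 from HepG2 and -1.63 from SNU398, the latter line having its own decrease of FOSB. ABL2 differed by -3.16 and -2.91, NR4A2 by -2.73 and -2.83 and LYPD1 by -2.67 and -3.45.

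Among genes not above background in untreated SNU475, PAGE2B differed by 1.76 from HepG2 and 1.16 from SNU398, PAGE2 by 1.97 and 2.12, PTGDS by 3.32 and 3.29 and EGFLAM by 2.67 and 2.51. Of the genes no longer above background at day 24, EDN2 differed by -3.12 and -2.94, NR4A3 by -1.67 and -1.09 and MEGF6 by -0.68 and -1.87. IL11 differed from SNU398 by -1.68 and not from HepG2 (-0.48, limma, adjusted p = 0.158). By their means, PTGDS and EDN2 were below background on both days in HepG2 and in SNU398. NR4A3 was below it on both days in HepG2 and at day 24 in SNU398. PAGE2B, PAGE2 and EGFLAM were below it in untreated cells of both lines. The differences of PTGDS and EDN2 from both lines, and of NR4A3 from HepG2, thus rest on the change in SNU475 alone.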

How the results depend on the processing

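In the 16 alternatives to the settings used, no named gene changed direction where it had a value, and of the gene values computed 1951 stayed on their side of the threshold and 38 lost their call, those of AFP, CDKN1A, DHCR7, DNMT1, DNMT3B, DST, ESAM, H3C4, H4C8, MT1E, PGK1, PMVK, SC5D, SLC29A2 and VIM. With probes above background on all 34 arrays, 8588 genes were tested, and 177 were at least 2-fold higher and 181 lower. That filter leaves out every probe below background on any array, such as those not above it in untreated cells. With a minimum fold of 1.2 in the test, 1250 genes were higher and 979 lower, 313 differed between days 24 and 17, 1638 between days 24 and 31, 2389 between SNU475 and HepG2 and 2914 between SNU475 and SNU398. Leaving out each of the 4 arrays in turn gave 2134 to 2233 genes higher and 1787 to 1880 lower, 457 to 486 and 304 to 315 at least 2-fold, 3244 to 4448 between days 24 and 31, 3728 to 3881 against HepG2 and 4486 to 4661 against SNU398. The count between days 24 and 17 ran from 1120 to 2007, with 1120 without day 24 replicate 1 and 1216 without day 24 replicate 2, where 1 array is assumed to vary like the other groups. With the replicate block 2818 genes were higher and 2394 lower, and H3C4 lost its call (limma, adjusted p = 0.0508), although no shared effect of the replicate number was seen. Medians of lists stayed within the spread in 324 cases and moved in 106. The median of the hepatocyte list, -0.01, was 0.06 with median scaling and 0.19 with cyclic loess, that of the epithelial list, 0.04, was -0.07 with an offset of 16, and that of the 5 endothelial markers, 0.18, was -0.02 with SNU475 arrays alone, so these have no settled direction. Genes near background have bounds only, and 2 arrays a group and array sets that coincide with the groups limit every comparison with untreated cells.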
